A study of Mus musculus with 3 samples.

Results

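The immediate early genes *Fos*, *Fosb*, *Jun*, *Junb*, *Jund*, *Egr1*, *Atf3*, *Ier2*, *Dusp1* and *Zfp36* were followed in single-cell RNA sequencing of epidermal and hair follicle cells. They were listed by name, as genes known to respond to stress within minutes, with earlier results of these data known, and make up 10 of the 19927 gene symbols in the deposited counts. All 10 were listed in each of the 3 libraries. Dorsal skin came from mice at postnatal day 18 (P18), with 2 control libraries (*Vdr* flox/flox) and 1 *Vdr* cKO library (*Vdr* flox/flox; Krt14cre). Both groups carry the floxed *Vdr* alleles, and in the *Vdr* cKO mice the Krt14 promoter drives Cre in basal and follicle keratinocytes and their progeny. According to the methods a library pools skin from 3 male animals. For every library, the skin lay for 20 min on trypsin (0.25%, 37 °C) before the cells were scraped off.

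Immediate early genes are transcribed within minutes of growth factors, wounding, heat or cell dissociation, without new protein being made first. Fos and Jun proteins pair as the transcription factor AP-1, which binds promoters and enhancers of many keratinocyte genes, including genes of differentiation. Dusp1, a phosphatase that switches off MAP kinases, and Zfp36, a protein that marks AU-rich mRNAs for decay, are induced with them and end the response.

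Promoters of *Fos*, *Jun*, *Atf3* and *Dusp1* are shown as examples from the AP-1 subunits and the feedback genes among the 6 genes over 2-fold higher in the library labelled *Vdr* cKO. All 6 promoters hold elements, full or half-site, of the kind that cAMP response element binding (CREB) and ATF proteins recognise. The share of all promoters with either was not taken. As the 6 were picked by their level, a link between these elements and the level was not tested. The RefSeq table of promoters on GRCm38.p6 had 8 of the 10 genes; *Egr1* and *Ier2* were not in it. Each line is the 250 bases upstream of the RefSeq start, 5′ to 3′ on the gene's own strand. Capitals mark the motifs found on either strand: TGACNTCA, its half-site TGACG, and TATAAA. The windows are chr12:85473640-85473889 (+) for *Fos*, chr4:95052223-95052472 (−) for *Jun*, chr1:191183334-191183583 (−) for *Atf3* and chr17:26508473-26508722 (−) for *Dusp1*, and those of *Atf3* and *Dusp1* lie at a RefSeq start inside the longer GENCODE locus.
Fos: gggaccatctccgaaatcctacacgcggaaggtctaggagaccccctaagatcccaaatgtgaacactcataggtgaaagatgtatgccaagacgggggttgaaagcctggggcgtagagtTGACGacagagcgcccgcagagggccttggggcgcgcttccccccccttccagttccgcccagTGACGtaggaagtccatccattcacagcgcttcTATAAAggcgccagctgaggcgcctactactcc
Jun: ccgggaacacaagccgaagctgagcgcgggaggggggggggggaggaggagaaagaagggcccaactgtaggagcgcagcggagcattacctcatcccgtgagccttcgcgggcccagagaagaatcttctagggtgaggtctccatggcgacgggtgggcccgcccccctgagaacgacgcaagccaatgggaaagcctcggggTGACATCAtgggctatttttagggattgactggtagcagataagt
Atf3: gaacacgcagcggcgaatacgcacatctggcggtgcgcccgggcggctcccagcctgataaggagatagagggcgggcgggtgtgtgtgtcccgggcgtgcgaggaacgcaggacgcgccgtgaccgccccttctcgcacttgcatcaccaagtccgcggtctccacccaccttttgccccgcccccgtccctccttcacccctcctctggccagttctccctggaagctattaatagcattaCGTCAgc
Dusp1: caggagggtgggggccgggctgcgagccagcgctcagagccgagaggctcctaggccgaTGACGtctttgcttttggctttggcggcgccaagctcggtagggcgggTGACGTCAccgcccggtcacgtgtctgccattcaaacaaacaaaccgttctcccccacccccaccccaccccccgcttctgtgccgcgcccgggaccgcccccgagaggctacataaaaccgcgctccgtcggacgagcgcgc

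With 50 bases after the start added, TGACNTCA was in 2 of the 8 promoters (*Jun* and *Dusp1*), against 8.62% of all 32544 promoters of that length. The half-site TGACG was in 5 of the 8, namely *Fos*, *Fosb*, *Junb*, *Atf3* and *Dusp1*, against 20.9% of all promoters. In *Dusp1*, the full element TGACGTCA overlaps a half-site on each strand. The AP-1 element TGANTCA was in none of the 8 windows, against 7.79% of all promoters, and the CArG box, which serum response factor binds, was in 1, the promoter of *Zfp36* (CCATAAAAGG, 58 bases before the start), against 1.64%. TATAAA was found in *Fos* and *Junb*, against 13.6%, with the *Junb* match at the RefSeq start itself. On the minus strand that start lies upstream of the GENCODE locus of *Junb*, which begins at 84978718. These matches describe the letters of the windows and show no binding.

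The libraries held 1480 control 1 cells, 1658 control 2 cells and 2622 cells labelled *Vdr* cKO, with 18802408, 28690129 and 30954897 counts and a median of 4190, 4492.5 and 4055 counts per cell. When each cell was reduced at random to 1000 counts, a median of 265, 309 and 393 genes was left, so the third library spread its counts over more genes. *Vdr* itself was not lower in the library labelled *Vdr* cKO, at 80.8 CPM (the counts of a gene per 1000000 counts of the library) against 40.7 and 35.9 CPM in the controls, and these counts per gene cannot tell transcripts that lack the deleted exon. The summed level of basal keratinocyte markers was 12427 CPM there against 4587 and 3267 CPM, that of suprabasal markers 51483 against 67499 and 77386 CPM, and that of T cell markers 62.4 against 24.5 and 15.3 CPM. Markers of the inner root sheath summed to 230 against 0.585 and 2.54 CPM, of the companion layer to 2360 against 687 and 813 CPM, and of cycling cells to 212 against 71.5 and 54.3 CPM, and the part of these cells in the levels of the early genes was not tested. Between libraries, 27, 28 and 20 of the cells bore a barcode also seen in another library, and they were kept.

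All 10 genes had a higher pooled level in the library labelled *Vdr* cKO than in either control. Pooled levels are the counts of a gene over all cells of a library, in CPM, with 95% exact Poisson intervals that cover counting error only. The level of 6 of the 10 (*Fos*, *Fosb*, *Jun*, *Junb*, *Atf3* and *Dusp1*) was over 2-fold above both controls, against a background of 3.88% of the 3919 genes that reached 50 CPM in a library. As the 10 were listed with earlier results known, these counts describe them and are no independent evidence. None was over 2-fold below both controls, against 1.15% of those genes. At any fold above both controls stood 10 of the 10, against 38.4%. With 1 CPM added to each level, the median log2 fold against the averaged controls was 1.26 for the 10 genes and 0.0017 for all genes at that level, and the median log2 ratio of control 1 to control 2 was 0.07 for the 10 genes. The summed level of the 10 was 2093 and 1990 CPM in the controls and 4795 CPM in the cKO library, which is 2.29-fold the higher control. The *Vdr* cKO group has 1 library, so nothing was tested and no p-value is given, and the gap between the controls is all that shows how much libraries vary. In pooled counts, more cells with these transcripts and more transcripts per cell cannot be told apart. Counts per cell with a count, without thinning, were above both controls in the cKO library for none of the 10 genes. For *Jun* they were 23.0, 20.3 and 21.8 in control 1, control 2 and the cKO library. For *Jun* and *Atf3* the cKO value lay between the controls, and for all the others it lay below both, as for *Fosb* (10.8, 9.51 and 5.22). Their part in the pooled levels was not tested. Counts per cell with a count were not taken for all genes, so these values describe the 10 and do not set them apart.

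**Figure D1:**
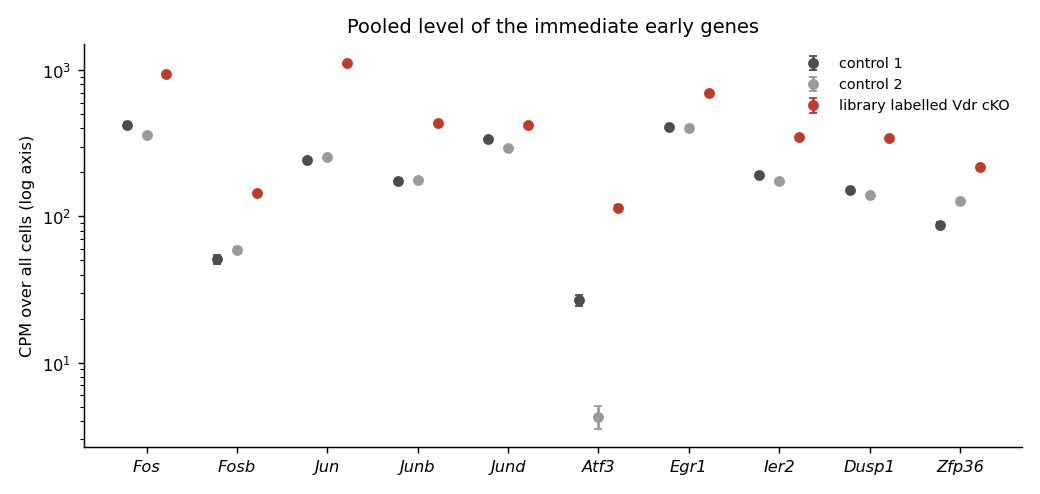
Pooled level in CPM (log axis) of each gene in the controls (grey) and the library labelled *Vdr* cKO (red), with 95% Poisson intervals, many of them smaller than the points. The red point is the highest for all 10 genes, the controls lie close together except for *Atf3* (26.6 and 4.25 CPM), and *Jund* shows the smallest step.

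*Fos*, the subunit that needs a Jun partner to bind DNA, had 424 and 358 CPM in control 1 and control 2 and 948 CPM in the cKO library. The third value was 2.24-fold the higher control, while the controls differed by 0.24 on the log2 scale. *Fosb*, its close relative, had 50.7, 59.0 and 144 CPM, or 2.44-fold the higher control. For both genes the controls were near each other and the third library stood apart.

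*Jun*, the subunit that can also pair with itself, had 244, 253 and 1121 CPM in the same order. That is 4.43-fold the higher control, and only 38 of the 3919 genes had a higher log2 fold. *Junb*, a relative that can restrain proliferation, had 175, 178 and 432 CPM, or 2.42-fold. *Jund*, the subunit that many resting cells keep at a steady level, had 336, 292 and 424 CPM, or 1.26-fold, the smallest step among the 10. The 3 Jun genes thus ranged from 1.26-fold to 4.43-fold, with the controls of each within 0.20 of each other on the log2 scale.

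*Atf3*, a stress-induced partner and repressor of the same family, had 26.6, 4.25 and 115 CPM. It passed the limit of 50 CPM through the library labelled *Vdr* cKO alone, so its count among the genes over 2-fold follows in part from the limit; of the other 9 genes, 5 were over 2-fold. The control values rest on few cells: 14 and 18 control cells had a count, against 447 cells of the third library, and a single cell held 36.8% of the counts in control 1. The controls differed by 2.39 on the log2 scale, and the fold over the higher control was 4.32.

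*Egr1*, a zinc finger factor induced by MAP kinases through serum response factor, had 408, 404 and 701 CPM, or 1.72-fold the higher control. *Ier2*, a nuclear protein of the same early response, had 191, 174 and 348 CPM, or 1.82-fold. Neither reached 2-fold, though for both the pooled level of the third library lay above a close pair of controls. With each gene counted once per cell in place of summed counts, *Egr1* was at 1.12-fold and *Ier2* at 1.23-fold the higher control.

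Of the genes that end the response, *Dusp1* had 152, 139 and 345 CPM, or 2.28-fold the higher control. *Zfp36* had 87.8, 128 and 216 CPM, or 1.69-fold, and its controls differed by 0.53 on the log2 scale, the widest gap after *Atf3*. Both were highest in the library where their inducible partners were highest.

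For each of the 10 genes the Poisson interval of the cKO library lay above the intervals of both controls. The share of all genes with such intervals was not taken, and the intervals cover counting error only, so this describes the 10 and does not set them apart. The size of the step depended on how the counts were scaled, and beside it the higher share of all genes called in either direction went from 77.2% to 55.4% (TMM) and 50.8% (median of ratios). Scaled by TMM factors of edgeR, 5 of the 10 genes were over 2-fold above both controls, and scaled by the median of ratios of DESeq2, 4 were. When each gene was counted once per cell, which removes repeat counts and weighs cells that express a gene strongly like the others, the number was 3: *Atf3* at 10.03-fold, *Fosb* at 2.48-fold and *Jun* at 2.29-fold, while *Fos* was at 1.39-fold, *Junb* at 1.59-fold and *Dusp1* at 1.42-fold. Of all genes at the level limit, 2.74% (TMM), 2.56% (median of ratios) and 3.63% (once per cell) were over 2-fold above both controls in these settings. All 10 genes stayed above both controls under each of these settings.

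Of the 10 loci, 6 overlap another annotated gene on the opposite strand, and whether reads were counted by strand is not given in the sources used here. On GRCm38 with GENCODE M21, *Jun* (chr4:95049034-95052222, −, 1 exon) overlaps the antisense gene *Junos*, *Jund* (chr8:70698949-70700616, +, 1 exon) overlaps *Gm11175*, and *Zfp36* (chr7:28376784-28380253, −) overlaps *Gm44710*. *Junb* (chr8:84974484-84978718, −) overlaps *Prdx2*, *Dusp1* (chr17:26505590-26562128, −) overlaps *Ergic1*, and *Atf3* (chr1:191170296-191218039, −) overlaps *Gm24748*. Overlaps were taken between whole gene spans, introns included, and the share of all genes with such an overlap was not taken. Without strand, reads in exons that a partner shares cannot be told apart from those of the named gene. *Dusp1* also overlaps *AC122252.4*, a processed pseudogene, and *AC122252.1* on its own strand, where strand would not help, so its counts are uncertain in this respect. *Fos* (chr12:85473890-85477273, +), *Fosb* (chr7:19302696-19310051, −), *Egr1* and *Ier2* (chr8:84661331-84662852, −) overlap no other gene.

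The share of cells with a count lay above both controls for all 10 genes as well. How many of all genes did so at any fold was not counted, and their median ratio over the higher control, 1.14, was itself a rise. Shares were taken after each cell was thinned to 1000 counts, over 1466, 1597 and 2562 cells, with exact Clopper-Pearson intervals. The median difference between the library labelled *Vdr* cKO and the mean of the controls was 10.1 percentage points for the 10 genes and 1.03 points for all genes, and the median ratio over the higher control was 2.34 for the 10 and 1.14 for all. The same 6 of the 10 genes as by level were over 2-fold above both controls, against 7.02% of genes.

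**Figure D2:**
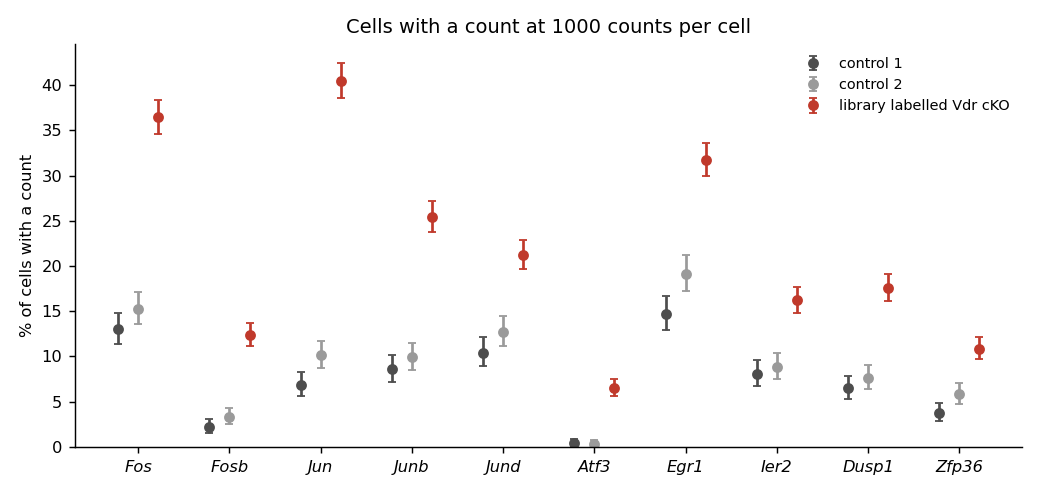
Percent of cells with at least 1 count of each gene at 1000 counts per cell in the 3 libraries, with 95% Clopper-Pearson intervals. The red interval lies above both grey intervals for all 10 genes, and *Jun* moves from 6.82% and 10.1% to 40.5%. The share of all genes with such intervals was not taken.

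*Jun* was seen in 6.82% of control 1 cells, 10.1% of control 2 cells and 40.5% of the cells labelled *Vdr* cKO, the widest difference of the 10. *Fos* was seen in 13.0%, 15.3% and 36.5% of cells. *Egr1* was seen in 14.7%, 19.2% and 31.7%, a smaller relative step. In 9 of the 10 genes, control 2 lay above control 1, in the same order as the number of genes detected per cell. The share of all genes with that order was not taken, and a link between the 2 was not tested.

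*Junb* was seen in 8.59%, 9.89% and 25.4% of cells, and *Dusp1* in 6.48%, 7.64% and 17.6%. *Fosb* was seen in 2.18%, 3.32% and 12.4%. *Atf3*, nearly absent from the controls, was seen in 0.409% and 0.313% of their cells, that is 6 and 5 cells, and in 6.52%, or 167 cells, of the third library. The remaining 3 genes were *Jund* (10.4%, 12.7% and 21.3%), *Ier2* (8.05%, 8.89% and 16.2%) and *Zfp36* (3.75%, 5.82% and 10.9%), all under 2-fold.

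As the third library had more detected genes at equal counts, the shares were also taken after drawing 200 detected genes from each cell. All 10 genes stayed above both controls, with a median difference of 3.46 points and a median ratio of 1.61. The ratios went from 1.23 for *Egr1* to 11.8 for *Atf3*. The same values were not taken for all genes in this setting, so it gives no background for the 10. No cell type in the skin is known to lack these genes, so free RNA was gauged with layer markers: *Krt14*, the basal keratin, had a count in 29.8%, 24.6% and 55.1% of cells rich in the granular protein *Lor*, and in 24.3%, 21.8% and 59.7% of cells poor in it. *Krt14* was thus about as frequent in cells rich in *Lor* as in cells poor in it. As these 2 groups of cells need not be separate layers, the values cannot tell free RNA from groups that mix cell types. The part of free RNA in the shares of the early genes was not tested.

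The number of early genes seen in the same cell differed with the libraries. At 1000 counts, 48.8% of control 1 cells, 41.6% of control 2 cells and 11.1% of the cells labelled *Vdr* cKO had none of the 10. At least 3 of them were seen in 4.09%, 7.64% and 37.9% of cells, and at least 5 in 0.409%, 0.814% and 7.10%. The mean was 0.745, 0.932 and 2.19 genes per cell, and the highest was 7, 6 and 7. Against both controls, the third library had a lower share of cells at 0 and 1 genes and a higher share at each number from 2 to 7. If the genes were seen independently of each other, 45.6%, 37.0% and 7.64% of cells would have none. At least 5 would be seen in 0.0292%, 0.0859% and 4.04%. Whether all cells or a group of them made up the difference was not tested.

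**Figure D3:**
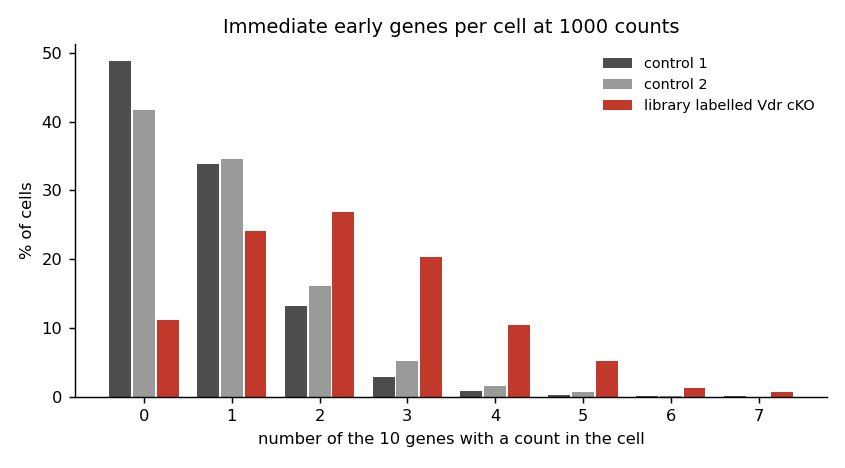
Percent of cells (vertical axis) by the number of the 10 genes with a count in the cell at 1000 counts (horizontal axis), for each library. Most control cells sit at 0 or 1, while the cells labelled *Vdr* cKO peak at 2 and run on past 5.

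Within a library, the genes were seen together slightly more often than expected, with the expected number taken within strata of detected genes. The median ratio of observed to expected cells over the 45 pairs was 1.24 in control 1, 1.32 in control 2 and 1.05 in the third library, and it was over 1 in 35, 36 and 32 pairs. Pairs of a library share its cells and their detected genes, so these ratios are a description. Such ratios were not taken for pairs of other genes, so they do not set the early genes apart. In the controls, pairs with *Atf3* rest on few cells, as only 6 control 1 cells and 5 control 2 cells had a count of it. The ratios are closest to 1 where the genes are most frequent.

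Cells were then placed by *Krt14*, which marks basal and outer root sheath cells, *Krt10*, which marks suprabasal cells, and *Lor*, which marks granular cells. At 1000 counts per cell, the low, middle and high bins held 0, 1 to 2 and at least 3 counts of *Krt14*, up to 15, 16 to 31 and at least 32 of *Krt10*, and up to 3, 4 to 12 and at least 13 of *Lor*. The mix of cells differed between libraries: the *Krt14*-high bin held 14.2%, 10.1% and 29.9% of cells, and the *Krt10*-high bin 42.8%, 37.9% and 15.4%. *Lor*-low cells were the deeper ones, with a median of 7310, 12984 and 6036 counts against 3872, 3466 and 3985 in *Lor*-high cells. *Lor* had a count in 90.4%, 84.0% and 80.8% of *Krt14*-high cells and in 87.6%, 81.9% and 84.1% of *Krt14*-low cells. The bins thus order cells by the counts of a marker and do not separate the layers cleanly.

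Along *Krt14*, the genes tended to be lower in the high bin. Lower in the *Krt14*-high than in the *Krt14*-low bin in all 3 libraries were 6 of the 10 (*Fos*, *Jun*, *Junb*, *Atf3*, *Egr1* and *Ier2*), against 24.6% of genes, and higher in all 3 were 0, against 20.6%. From the low to the high bin, *Fos* went from 484 to 236 CPM in control 1, from 383 to 62.8 CPM in control 2 and from 1008 to 928 CPM in the third library. *Jun* went from 292 to 87.3, from 273 to 114 and from 1188 to 1155 CPM. In pooled counts both steps were smaller in the third library than in the controls, but not in every setting. With each gene counted once per cell, the log2 step in control 1 was -0.04 for *Fos* and -0.05 for *Jun*, against -0.13 and -0.15 in the third library. In control 2 it was -1.66 and -0.55, so the controls differed. The share of control 1 cells with *Fos* was 12.6% in the low bin and 12.5% in the high bin, and that with *Jun* was 7.31% and 7.21%. Among control 2 cells the share went from 16.6% to 4.94% for *Fos* and from 10.5% to 6.79% for *Jun*. With cells ranked in each library, 4 of the 10 were lower in all 3, without *Junb* and *Atf3*, and *Junb* was lower in all 3 in 3 of the 6 other settings.

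Along *Krt10*, there was no common course. Higher in the *Krt10*-high bin in all 3 libraries were 3 of the 10 (*Fos*, *Egr1* and *Ier2*), against 26.4% of genes, and lower was 1, *Jund*, against 18.2%, so both shares were near or under the background. *Fos* went from 167 to 465 CPM in control 1, from 245 to 388 CPM in control 2 and from 910 to 1016 CPM in the third library. *Egr1* hardly moved, from 378 to 381, 354 to 381 and 696 to 716 CPM. When the counts were first thinned to 1000 per cell, or when each cell's CPM was averaged, 0 of the 10 were higher in all 3 libraries.

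Along *Lor*, 4 of the 10 (*Junb*, *Jund*, *Ier2* and *Dusp1*) were higher in the high bin in all 3 libraries, against 15.3% of genes, and 1, *Atf3*, was lower, against 39.4%. *Junb* went from 104 to 336 CPM in control 1, from 122 to 297 CPM in control 2 and from 380 to 505 CPM in the third library. *Dusp1* went from 127 to 211, from 123 to 168 and from 274 to 460 CPM. *Junb* was higher in the *Lor*-high bin in every library in all 6 other settings. *Dusp1* was so in 4 of them: in control 1 its log2 step was -0.15 with each cell's CPM averaged, where only *Junb* and *Ier2* were left of the 10, and -0.33 with thinned counts.

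*Jun* had unlike pooled courses in the libraries. From *Lor*-low to *Lor*-high cells it went from 172 to 406 CPM in control 1 and from 144 to 508 CPM in control 2, and from 1154 to 1127 CPM in the third library. The log2 step was 1.23 and 1.81 in the controls and -0.03 in the third library. With each cell's CPM averaged it was 0.33, 0.61 and -0.35, so its size rested on pooling. The share of control 1 cells with *Jun* was 6.63% in the low and 7.54% in the high bin, with overlapping intervals. For control 2 cells it was 9.15% and 13.1%, also with overlapping intervals. With 1 *Vdr* cKO library, the difference in course was not tested.

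**Figure D4:**
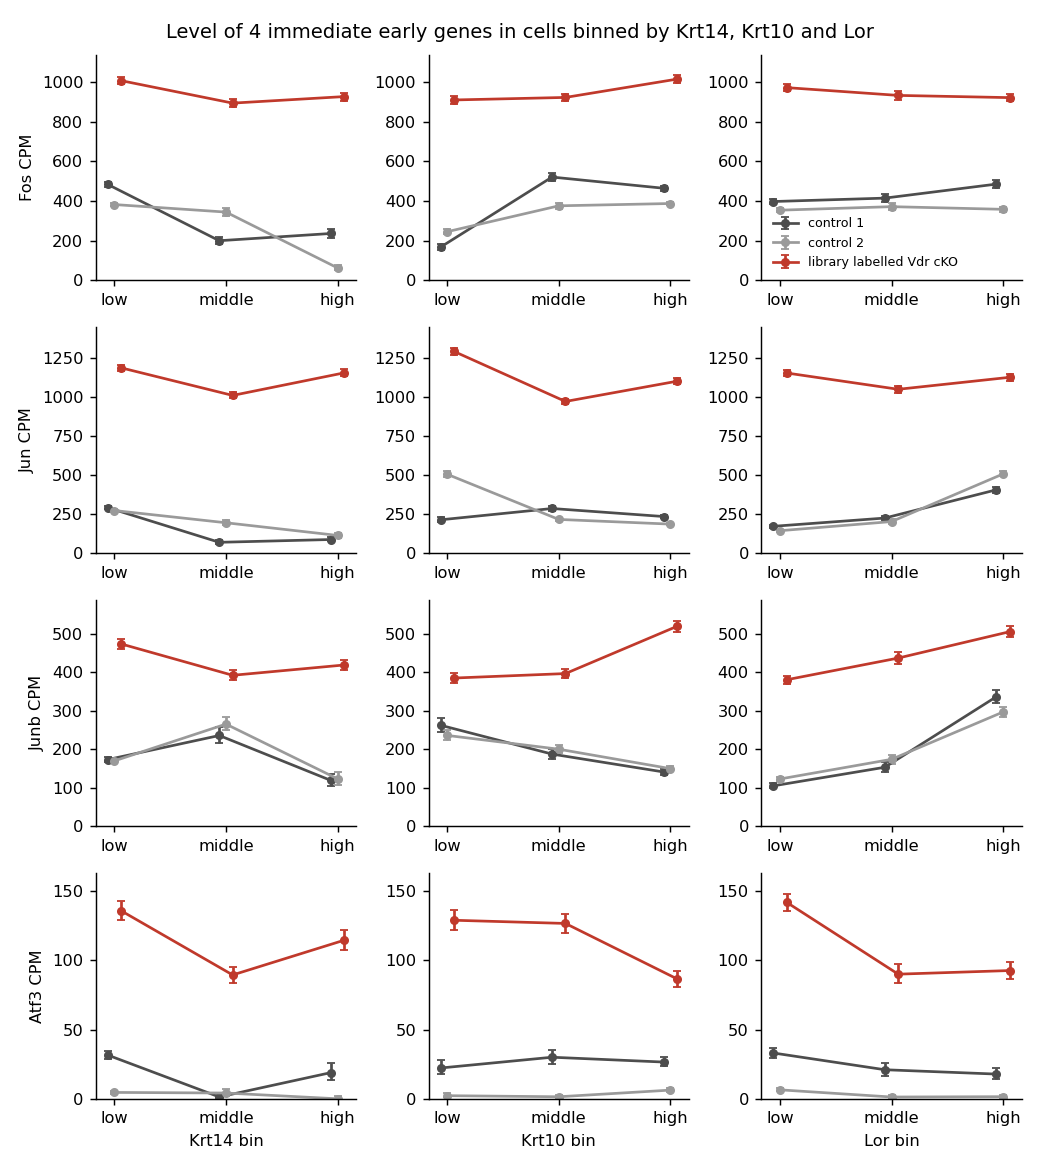
Level in CPM (linear axes from 0) of *Fos*, *Jun*, *Junb* and *Atf3* in cells of the low, middle and high bins of *Krt14*, *Krt10* and *Lor*, for the 3 libraries, with 95% Poisson intervals. The red line lies above both grey lines in every panel, and *Jun* climbs with *Lor* in the controls (172 to 406 and 144 to 508 CPM) but not in the library labelled *Vdr* cKO (1154 to 1127 CPM).

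Within the bins, the library labelled *Vdr* cKO stayed above both controls. Over 2-fold above both were 6, 3 and 9 of the 10 genes in the low, middle and high bins of *Krt14*, against 2.27%, 4.51% and 8.18% of genes. In the bins of *Krt10* the numbers were 6, 3 and 6, against 10.2%, 3.24% and 2.85%, and in those of *Lor* 6, 6 and 3, against 5.65%, 4.8% and 4.71%. At any fold, all 10 genes were above both controls in the *Krt14* bins, against 35.6%, 30.3% and 31.1% of genes from low to high, and in the *Lor* bins, against 36.3%, 34.4% and 38.9%. In the *Krt10* bins 9, 10 and 10 were, against 40.4%, 32.4% and 35.4%, with *Zfp36* at 0.73 times the higher control in the low bin.

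*Jun* was over 2-fold above both controls in each of the 9 bins, from 2.22-fold in *Lor*-high cells to 10.2-fold in *Krt14*-high cells. *Fos* ranged from 1.77-fold in the *Krt10*-middle bin to 3.92-fold in *Krt14*-high cells. *Jund*, the gene with the smallest pooled step, was at 1.06-fold in *Krt14*-low cells and at 3.10-fold in *Krt14*-high cells. In *Krt14*-high cells, which make up a larger share of the third library, every gene but *Zfp36* (1.82-fold) was over 2-fold. This bin held 208 and 162 cells in control 1 and control 2. At 1000 counts, *Jun* had a count in 7.21% and 6.79% of them, against 40% in the third library. For *Fos* the shares were 12.5%, 4.94% and 37.4%. The folds in this bin thus rest on few control cells.

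**Figure D5:**
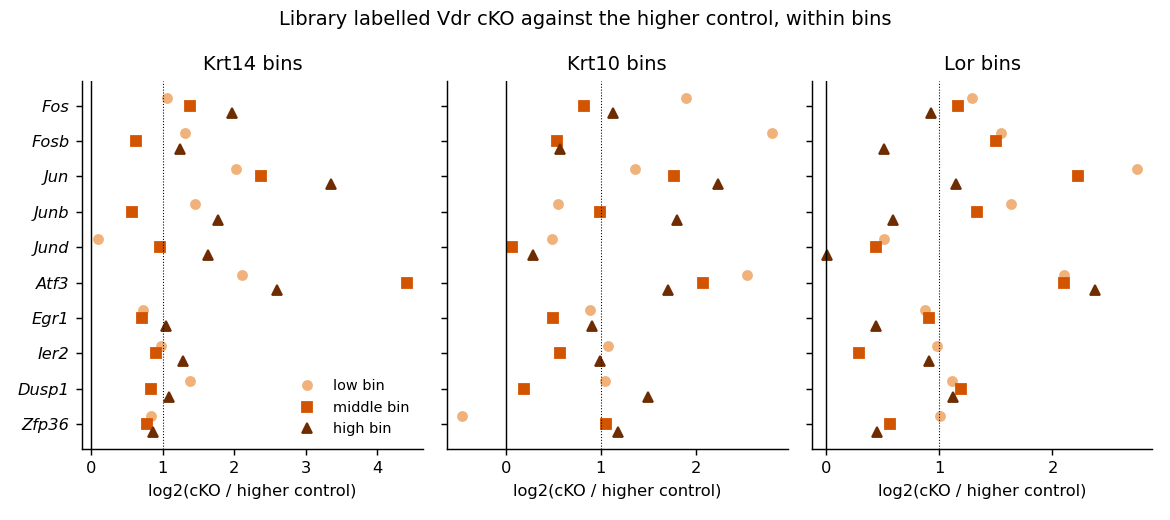
Log2 ratio of the level in the library labelled *Vdr* cKO to the higher control (horizontal axis) for each gene within the low, middle and high bins of *Krt14*, *Krt10* and *Lor*, with the solid line at no difference and the dotted line at 2-fold. All points but 1, *Zfp36* in the *Krt10*-low bin, lie right of the solid line, and *Jun* lies right of the dotted line in every bin.

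When the control bins were weighted to the mix in the cKO library, 8 of the 10 genes were over 2-fold above both controls with the *Krt14* bins, 5 with the *Krt10* bins and 6 with the *Lor* bins, against 2.58%, 2.96% and 3.97% of genes. The median log2 fold of the 10 was 1.29, 1.14 and 1.21, and that of all genes at the level limit was -0.01, 0.02 and 0.02. The pooled counts gave 6 of the 10 and a median of 1.26.

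Related genes outside the 10 were also counted. Of 61 listed genes of the immediate early response, AP-1, MAP kinases and their feedback, 59 were found and 22 reached 50 CPM. In the cKO library none of the 22 was over 2-fold from both controls in either direction, against 3.88% of all genes above and 1.15% below, so 0 of so few is near the background. Above both at any fold were 12, against 38.4%. Among these, *Nfkbiz*, *Myc* (37.5, 29.8 and 65.0 CPM) and *Klf10* (43.7, 32.6 and 52.4 CPM) passed the limit of 50 CPM through the cKO library alone. This count, and the median and upper end of the range of the 22, thus follow in part from the limit. The other 37 were under 50 CPM and were not put through the rule, and some of them, such as *Nr4a1* and *Ccn1*, had large ratios. The median log2 fold of the 22 genes that reached 50 CPM was 0.31. Among those 22, the range went from -0.95 for *Klf4*, a factor of differentiating keratinocytes (1891, 1620 and 910 CPM), to 1.02 for *Nfkbiz*, an NF-κB cofactor (32.1, 25.1 and 59.0 CPM). *Egr2* (92.4, 85.4 and 69.0 CPM) and *Ier5* (53.9, 81.1 and 51.7 CPM), relatives of *Egr1* and *Ier2*, were lower in the third library than in both controls. The 1 gene apart from both others was *Zfp36l2*, a relative of *Zfp36*, at 106, 42.0 and 113 CPM, which was low in control 2. The genes named here other than *Zfp36l2* were picked after their values were seen.

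Heat shock genes, another group that dissociation can induce, had a summed level of 1136 and 969 CPM in the controls and 1107 CPM in the cKO library. Of these 6 genes, 0 were over 2-fold from both controls, against 3.88% of all genes above and 1.15% below. With so few genes, 0 is near that background. The mitochondrial share of counts was 1.56%, 1.15% and 1.28%, without the order seen for the early genes. In cells under and over their library's median mitochondrial share, the summed level of the 10 genes was 2228 and 1634 CPM in control 1, 2039 and 1750 CPM in control 2, and 4840 and 4614 CPM in the third library. With 1 *Vdr* cKO library, differences in the handling of a library cannot be told apart from the genotype.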

How the data were processed

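The authors captured cells of dorsal skin on the Nadia droplet system and deposited raw counts per gene and barcode, 1 matrix for each library. The submitters' processing notes give the build mm10; the methods name Seurat v4 for the alignment, which is no read aligner, and annotation, strand and the rule for copies of a molecule are not given in the sources used here. The counts can include PCR copies, so intervals are too narrow.

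A barcode was kept as a cell with 200 or more genes and no more than 20% of its counts mitochondrial. Doublets were neither called nor removed. Counts were summed over cells and divided by the library's total (CPM); log2 folds and the 2-fold rule add 1 CPM to each level, and folds over the higher control are plain ratios of CPM. Genes reaching 50 CPM in a library were counted when over 2-fold from both other libraries. Shares used cells thinned to 1000 counts, which left out 14, 61 and 60 cells. Groups came from the labels. With 1 *Vdr* cKO library no p-value was computed. Named were the 10 genes, *Vdr*, the bin markers and genes of the wider list over 2-fold apart. Other genes named from that list or by co-detection were picked after their values were seen. Members and lists were chosen with earlier results of these data known. Weighting to bins was chosen after seeing the data. Scripts were tested on simulated data.

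Python 3.11.15, numpy 2.4.6, scipy 1.17.1, pandas 2.3.3 and matplotlib 3.10.9 were used, with R 4.3.3, edgeR 4.0.16 and DESeq2 1.42.0 for alternative scaling factors only. Alternatives were other scalings, limits for cells and genes, folds, depths of thinning, bin rules and leaving out each library.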

Additional observations from a re-analysis of the deposited data

How the results depend on the processing

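The number of genes over 2-fold above both controls was 6, and it was 3 with each gene counted once per cell and 2 at 3-fold, a stricter limit by construction. Leaving out a control library gave 6 to 7. The median log2 fold of 1.26 was 1.08 with TMM factors, 1.05 with median-of-ratios factors and 0.62 with each gene counted once per cell. These scalings moved the median of all genes by -0.19 (TMM) and -0.22 (median of ratios), about as far as they moved the median of the 10 genes, and the share of higher among all called genes went from 77.2% to 55.4% and 50.8%. Leaving out a control gave medians of 1.24 to 1.27. The median difference in share was 6.23 points at the lower depth tried, 15.0 at the higher, 21.3 without thinning and 3.46 with 200 genes drawn, and 9.49 to 10.96 without a control. The number of genes higher in the high bin in all libraries was 1 for *Krt14* with cells ranked in each library (0 to 1 without a library), where 4 rather than 6 were lower in all, 0 for *Krt10* with each cell's CPM averaged or thinned counts (3 to 5 without a library), and 2 for *Lor* with each cell's CPM averaged (4 to 7 without a library). The cause was not tested. No log2 fold of the 10 genes turned its direction over these settings. *Atf3* had the widest range, 2.07 without control 2 to 4.46 without control 1. No paired analysis was possible because the groups share a single replicate number. Depth limits *Atf3* most, with 500 and 122 counts in the controls.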

Other observations

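Barcodes that were not kept as cells held the early genes too. Their summed level was 2084 CPM (95% Poisson interval 2001 to 2169) for the first control, 2397 CPM (2270 to 2530) for the second and 2793 CPM (2509 to 3100) for the cKO library, where the interval overlaps that of the second control. *Jun* was at 435, 370 and 635 CPM among them and *Atf3* at 6.13, 19.9 and 151 CPM, from 7, 11 and 19 counts. In the cKO library these were 160 barcodes with 126039 counts, and the share over all genes was not taken among them. Above both controls there were 4 of the 10 genes, against 38.4% of all genes in the cells. The other 6 were not: *Fosb* had 99.9, 178 and 119 CPM, *Junb* 381, 145 and 198 CPM, *Jund* 158, 448 and 333 CPM, *Egr1* 219, 325 and 214 CPM, *Ier2* 187, 102 and 159 CPM, and *Zfp36* 216, 288 and 47.6 CPM.

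Some genes of the wider list under 50 CPM had large ratios from low levels, and they are named after their values were seen. *Nr4a1*, an early nuclear receptor, had 9.68 and 2.54 CPM in the controls and 48.9 CPM in the cKO library. *Ccn1*, a matrix protein gene of the serum response, had 1.54, 0.314 and 35.5 CPM. *Fosl1*, a Fos relative, went the other way, at 8.03, 7.53 and 0.905 CPM. None was put through the limit of 2-fold.

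Among 1218 genes seen in at least 5% of cells at 1000 counts in every library, *Elmod1* and *Ly6m* came first when genes were ranked by the smallest of the 3 libraries' differences in early genes between cells with and without them. Cells with and without a gene were compared within 5 strata of detected genes. The mean number of early genes differed by 0.30, 0.34 and 0.28 between cells with and without *Elmod1* in the same order of libraries, and by 0.47, 0.26 and 0.37 for *Ly6m*. *Krtdap*, the fourth by this ranking, had larger differences than *Elmod1* in the controls (0.41 and 0.42) and a smaller one in the cKO library (0.25). As *Krtdap* was seen in 98.0%, 98.1% and 95.7% of cells, its differences rest on the few cells without it. The differences are small beside the step between libraries, and cells of the same library are not replicates.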
